A study of Homo sapiens with 29 samples.

Results

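PADI2 encodes peptidyl arginine deiminase 2, and its row was 1 of 13492 genes in the deposited table of expression values. The row was picked by its symbol because its level was already known to differ between the treatment groups, so every PADI2 level and difference between groups below is a description with a standard error and carries no test. Bulk polyA RNA had been sequenced from 29 tumours grown in vivo from COLO320DM cells, a line of human colorectal adenocarcinoma, all sampled at 48 h. The tumours had received Helicon4 at 100 mpk (n = 5), Helicon4 at 30 mpk (n = 6), Helicon4neg at 30 mpk (n = 8) or vehicle (n = 10). Doses are in mpk as labelled. Helicon4 is a stabilised helical peptide of the helicon class directed at the complex of β-catenin with TCF, and Helicon4neg is by its name the negative counterpart. All tumours are of 1 cell line, and the replicate number is the only sign that libraries came from separate animals, so a p-value here measures the spread between these libraries.

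Peptidyl arginine deiminases are calcium-dependent enzymes that turn arginine residues of proteins into citrulline, which removes a positive charge from the side chain. PADI2 is the family member with the broadest tissue range, is expressed in the colon epithelium, and has been reported to be reduced in colorectal cancer and to citrullinate β-catenin. AXIN2 and NKD1 are feedback inhibitors of the Wnt pathway whose transcription is driven by β-catenin with TCF, and their levels serve as readouts of that pathway.

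The human PADI2 gene (ENSG00000117115) lies on the minus strand at chr1:17066761-17119435 (GRCh38, GENCODE 29), and its annotated transcript ENST00000375486 has 16 exons. The promoter is shown because TCF sites and GC boxes are the letters through which the factors discussed here are known to bind DNA. The 300 bases at chr1:17119402-17119701 on the minus strand (RefSeq, GRCh38.p14) run from 250 bases before to 50 bases after the annotated start, 5′ to 3′, with GC boxes in capitals.
PADI2 promoter: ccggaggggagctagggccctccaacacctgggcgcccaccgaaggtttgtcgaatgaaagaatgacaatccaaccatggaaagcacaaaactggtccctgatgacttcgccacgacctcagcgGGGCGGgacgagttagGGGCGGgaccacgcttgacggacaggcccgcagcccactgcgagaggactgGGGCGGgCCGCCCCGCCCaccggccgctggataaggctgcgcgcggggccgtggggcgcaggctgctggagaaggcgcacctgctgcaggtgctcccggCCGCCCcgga

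The GC box, the letters GGGCGG on either strand and known as the binding motif of SP1-type factors, occurred 6 times in this window, at -126, -110, -59, -52, -47 and 41 relative to the start. The boxes at -52 and -47 share 1 base. Of 35116 RefSeq promoters of the same length, 44.95% held at least 1 GC box and 2.86% held at least 6. Among the 14901 promoters that belong to genes of the expression table, these shares were 64.9% and 4.64%. The TCF letters CTTTGAT did not occur on either strand, and 2.62% of all promoters held them. The CCAAT box, bound by the NFY complex, did not occur either, against 34.6% of all promoters. The E-box letters CANNTG occurred 3 times, and 68.7% of all promoters held at least 1. The PADI2 window was 69.0% G and C, against a median of 58.7% over all promoters. The promoters of PADI1, PADI4 and PADI6 held 63.0%, 61.7% and 60.7% G and C, and none of these 3 held a GC box.

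The values are reads per gene relative to library size (CPM) after a scaling between libraries by the authors. Recovered depth was 26.8 to 61.6 M reads per library. Tumour markers were measured in all 29 libraries, with EPCAM at 20.2 to 42.9 CPM, KRT8 at 124 to 270 CPM and CDX2 at 1602 to 4783 CPM, whereas KRT19 was at 0.365 to 1.87 CPM. CDH1 and VIL1 were not analysed here. Helicon4neg replicate 2 stood apart from its group in how values depended on gene length, with a slope of -0.321 against -0.045 for the next library. Vehicle replicate 6 had the lowest slope of its group at -0.186, near vehicle replicate 4 at -0.135 and replicate 8 at -0.132. Leaving out Helicon4neg replicate 2 and vehicle replicate 6 moved the PADI2 differences by less than the spread between libraries. The library titles carry a code from SH7078 to SH7084 whose meaning is not stated, and no code held both vehicle and Helicon4 libraries.

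PADI2 was high in every tumour treated with Helicon4 and low in every other tumour. With Helicon4 at 100 mpk, the 5 libraries held 27.6, 38.5, 31.5, 18.4 and 35.97 CPM. With Helicon4 at 30 mpk, the 6 libraries had a lowest value of 17.2, a median of 21.8 and a highest value of 27.1 CPM. The 18 libraries without Helicon4 all lay below these. With Helicon4neg at 30 mpk the lowest value was 3.90, the median 4.73 and the highest 5.74 CPM (8 libraries). With vehicle they were 2.74, 4.00 and 4.76 CPM (10 libraries). The lowest Helicon4 library thus held 17.2 CPM and the highest library without Helicon4 held 5.74 CPM.

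The group means were 30.4 ± 7.88 CPM with Helicon4 at 100 mpk (SD, n = 5), 22.2 ± 3.96 CPM with Helicon4 at 30 mpk (SD, n = 6), 4.75 ± 0.655 CPM with Helicon4neg (SD, n = 8) and 3.94 ± 0.725 CPM with vehicle (SD, n = 10). In this order, Helicon4 at 100 mpk overlapped Helicon4 at 30 mpk, Helicon4neg overlapped vehicle, and the gap lay between Helicon4 at 30 mpk and Helicon4neg. Per kilobase of the 5984-base length in the table, PADI2 averaged 5.08, 3.72, 0.794 and 0.659 CPM per kb in the same order of groups. On that scale its level stood at percentile 48.6 of all genes of the table with Helicon4 at 100 mpk, 40.8 with Helicon4 at 30 mpk, 14.7 with Helicon4neg and 12.7 with vehicle. PADI2 was therefore a gene of middle level in the Helicon4 tumours and of low level in the others.

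**Figure D1:**
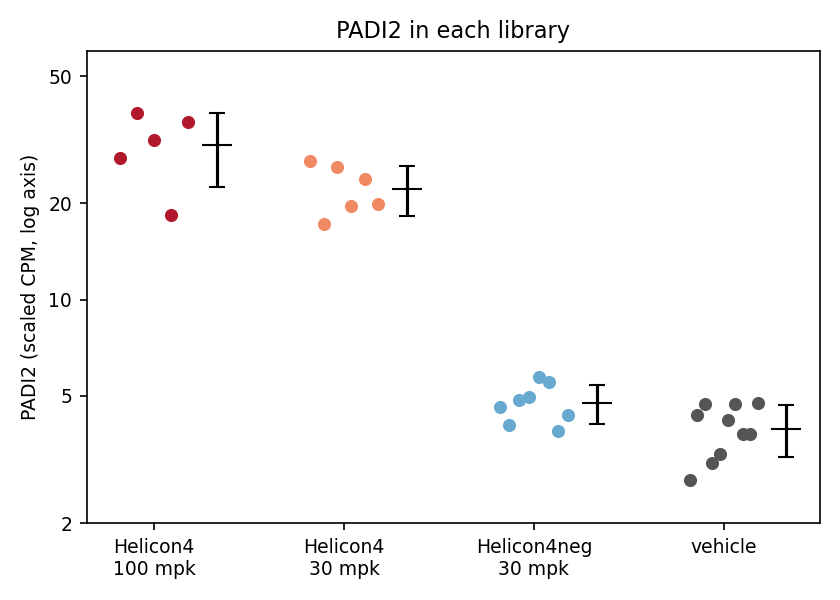
PADI2 in each of the 29 libraries, in scaled CPM on a log axis, by treatment group; each point is 1 library and the bars give the group mean and SD. The Helicon4 libraries sit between 17.2 and 38.5 CPM at both doses, and the Helicon4neg and vehicle libraries between 2.74 and 5.74 CPM.

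The values rested on 1147 to 2154 reads of PADI2 per library with Helicon4 at 100 mpk, 773 to 1337 with Helicon4 at 30 mpk, 87 to 340 with Helicon4neg and 105 to 262 with vehicle. Counting error gave a coefficient of variation of 2.66%, 3.10%, 6.62% and 7.65% in these groups. The observed coefficients of variation were 25.9% with Helicon4 at 100 mpk, 17.8% with Helicon4 at 30 mpk, 13.8% with Helicon4neg and 18.4% with vehicle. The spread between libraries was thus larger than counting error in each group.

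Against vehicle, PADI2 was higher by 2.64 ± 0.14 (SE) on the log2(CPM + 1) scale with Helicon4 at 100 mpk, and the ratio of mean CPM was 7.71. This was the 4th highest difference of the 13373 genes in the fit. With Helicon4 at 30 mpk the difference from vehicle was 2.23 ± 0.13 (SE), with a ratio of mean CPM of 5.64, the 2nd highest of 13373. Adding 1 to each value shrinks differences of low genes, and edgeR on the recovered reads gave log2 differences of 2.95 and 2.50 for the same comparisons. The ranges of the groups did not overlap in either comparison. Both comparisons use the same 10 vehicle libraries.

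The peptides were compared at the matched dose of 30 mpk. At that dose PADI2 was at 17.2 to 27.1 CPM with Helicon4 and 3.90 to 5.74 CPM with Helicon4neg, a log2 difference of 2.01 ± 0.13 (SE) and a ratio of mean CPM of 4.68. It was the 2nd highest difference of 13373 genes in that comparison. Helicon4neg against vehicle differed by 0.22 ± 0.12 (SE), with a ratio of mean CPM of 1.20, and ranked 1329th. In that comparison 4 of the 8 Helicon4neg libraries were above all 10 vehicle libraries, and the ranges overlapped.

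Between the doses of Helicon4 the PADI2 values overlapped. The log2 difference of 100 mpk over 30 mpk was 0.41 ± 0.15 (SE), with a ratio of mean CPM of 1.37, and ranked 329th of 13373. Of the 5 libraries at 100 mpk, 4 were above all 6 libraries at 30 mpk. The remaining library, replicate 4, held 18.4 CPM, below all but the lowest of the 30 mpk libraries at 17.2 CPM. Leaving that library out raised the difference to 0.57.

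Within a title code the PADI2 differences pointed the same way. Code SH7081 held 1 library with Helicon4 at 30 mpk at 27.1 CPM and 3 with Helicon4neg at a mean of 4.59 CPM, a log2 difference of 2.34. Code SH7083 held 4 libraries with Helicon4 at 100 mpk at a mean of 29 CPM and 1 with Helicon4 at 30 mpk at 19.8 CPM, a log2 difference of 0.48. Code SH7080 held 5 Helicon4neg libraries at a mean of 4.85 CPM and 2 vehicle libraries at a mean of 4.28 CPM, a log2 difference of 0.15. With the code as a factor in the fit, the PADI2 difference from vehicle was 2.97 ± 0.44 (SE) at 100 mpk and 2.49 ± 0.35 (SE) at 30 mpk of Helicon4. This fit joins Helicon4 to vehicle only through the Helicon4neg libraries of the codes SH7080 and SH7081. In SH7081 that link rests on 1 Helicon4 library, the highest of the 30 mpk group. The 100 mpk value rests as well on 1 library with Helicon4 at 30 mpk in SH7083. The fit thus chains the 3 within-code differences above and is not separate from them.

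AXIN2 and NKD1 were lower with Helicon4, where PADI2 was higher, and with Helicon4neg all 3 genes had means above those with vehicle. AXIN2 was at 241.9, 309.3, 253.4, 221.4 and 314.0 CPM with Helicon4 at 100 mpk. With Helicon4 at 30 mpk its lowest, median and highest values were 329, 386 and 420 CPM. With Helicon4neg they were 425, 572 and 646 CPM, and with vehicle 397, 500.3 and 541 CPM. The 100 mpk libraries were thus all below the 30 mpk libraries, whereas the 30 mpk and vehicle ranges overlapped. By limma with Benjamini-Hochberg adjustment over 13373 genes, AXIN2 fell by 0.85 ± 0.09 (SE) on the log2 scale with Helicon4 at 100 mpk against vehicle (adjusted p = 3.07e-08) and by 0.35 ± 0.09 (SE) with Helicon4 at 30 mpk (adjusted p = 0.00804). It was lower with 100 mpk than with 30 mpk by a log2 difference of -0.50 ± 0.10 (SE, adjusted p = 0.00469). Helicon4neg differed from vehicle by 0.20 ± 0.08 (SE, adjusted p = 0.152). Without Helicon4neg replicate 2 and vehicle replicate 6 this difference was 0.23 and passed the threshold (adjusted p = 0.033).

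NKD1 averaged 75.6 ± 18.4 CPM with Helicon4 at 100 mpk (SD, n = 5), 115 ± 14.6 CPM with Helicon4 at 30 mpk (SD, n = 6), 366 ± 59.98 CPM with Helicon4neg (SD, n = 8) and 289 ± 39.1 CPM with vehicle (SD, n = 10). Its log2 difference from vehicle was -1.94 ± 0.12 (SE, adjusted p = 3.03e-13) at 100 mpk and -1.32 ± 0.12 (SE, adjusted p = 8.02e-10) at 30 mpk of Helicon4. At the matched dose, Helicon4 against Helicon4neg gave -1.66 ± 0.12 for NKD1 (SE, adjusted p = 1.47e-11) and -0.55 ± 0.09 for AXIN2 (SE, adjusted p = 7.2e-05). Helicon4neg differed from vehicle by 0.33 ± 0.11 for NKD1 (SE, adjusted p = 0.0638, and 0.022 without Helicon4neg replicate 2 and vehicle replicate 6). Between the Helicon4 doses NKD1 differed by -0.62 ± 0.14 (SE, adjusted p = 0.00766). With the title code as a factor, NKD1 kept its calls for both doses against vehicle (adjusted p = 0.00908 and 0.036), and AXIN2 lost them (adjusted p = 0.422 and 0.987) at differences of -0.77 ± 0.32 and -0.40 ± 0.25 (SE). The matched-dose call of AXIN2 was lost at -0.64 ± 0.20 (SE, adjusted p = 0.164), and that of NKD1 was kept at -1.59 ± 0.25 (SE, adjusted p = 0.000631). Between the doses, both calls were lost, at -0.37 ± 0.19 for AXIN2 and -0.60 ± 0.24 for NKD1 (SE, adjusted p = 0.985 and 0.778). The standard errors of this fit were larger than those without the code, and the differences kept their sign.

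The dose steps of the 3 genes differed in proportion. For AXIN2 the ratio of mean CPM was 0.555 at 100 mpk and 0.783 at 30 mpk of Helicon4, both over vehicle. For NKD1 the ratios were 0.261 and 0.396 for the same comparisons. For PADI2 they were 7.71 and 5.64. These differences in proportion were not tested, and each pair of ratios shares the vehicle libraries.

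Over all 29 libraries, Pearson's r of PADI2 on the log2(CPM + 1) scale was -0.914 with NKD1 and -0.793 with AXIN2. Of 10717 genes with a mean of at least 5 CPM, NKD1 had the 26th lowest and AXIN2 the 171st lowest r. The group means differed in all 3 genes, although some ranges overlapped, as for AXIN2 with Helicon4 at 30 mpk and with vehicle. These values of r therefore largely describe the groups and have no test. Within groups the relation was tested in the 3 groups of at least 6 libraries, which gave 6 relations. With AXIN2, r was -0.294 with Helicon4 at 30 mpk (n = 6, exact permutation p = 0.524), 0.214 with Helicon4neg (n = 8, exact permutation p = 0.633) and -0.143 with vehicle (n = 10, permutation p = 0.692). With NKD1, r was -0.083 with Helicon4 at 30 mpk (n = 6, exact permutation p = 0.860), 0.278 with Helicon4neg (n = 8, exact permutation p = 0.533) and 0.309 with vehicle (n = 10, permutation p = 0.386). The tests were two-sided.

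Spearman's rho with AXIN2 was -0.543 with Helicon4 at 30 mpk (exact permutation p = 0.297), 0.143 with Helicon4neg (exact permutation p = 0.752) and -0.103 with vehicle (permutation p = 0.783). With NKD1, rho was -0.143 (exact permutation p = 0.803), 0.095 (exact permutation p = 0.840) and 0.333 (permutation p = 0.346) in these groups. The lowest adjusted p over the 6 relations was 0.831 for r and 0.840 for rho, so none of these 6 relations was detectable. Without the 2 libraries farthest from the median of AXIN2, r was -0.639, 0.169 and 0.215 in these groups. Without the 2 farthest for NKD1, r was -0.329, -0.262 and 0.371. The 5 libraries at 100 mpk were too few for a test of correlation. Over these 5, r was 0.903 with AXIN2 and 0.140 with NKD1, given as a description. Among title codes, only SH7079 held 6 or more libraries of 1 group, and in its 7 vehicle libraries r was 0.187 with AXIN2 (exact permutation p = 0.675) and 0.520 with NKD1 (exact permutation p = 0.213).

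**Figure D2:**
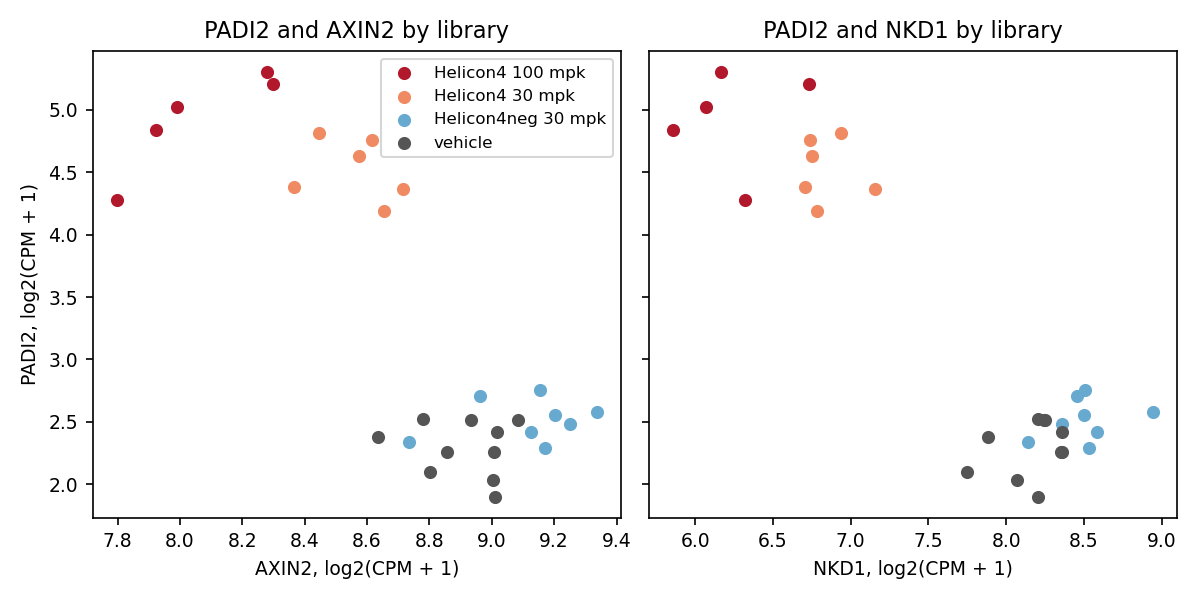
PADI2 against AXIN2 and against NKD1 in each of 29 libraries, as log2(CPM + 1), coloured by group. The Helicon4 libraries lie at upper left and the Helicon4neg and vehicle libraries at lower right; within groups r ranged between -0.294 and 0.309 for the 6 relations tested.

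BMF followed PADI2 most closely over the 29 libraries, with r of 0.981. BMF encodes a BH3-only protein that promotes apoptosis, and it averaged 48.7 ± 6.67 CPM with Helicon4 at 100 mpk, 35.9 ± 5.82 CPM with Helicon4 at 30 mpk, 8.65 ± 1.03 CPM with Helicon4neg and 9.31 ± 1.38 CPM with vehicle (SD). Its log2 differences from vehicle were 2.27 and 1.84 with Helicon4 at 100 and 30 mpk, and -0.09 with Helicon4neg. The other genes with the 6 highest r were GPA33, HRC, EPHB3, TP53INP2 and MYT1, with r of 0.977, 0.967, 0.960, 0.959 and 0.958. These genes were picked by their likeness to PADI2, so their values are a description with no test.

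GPA33 encodes an antigen of the intestinal epithelial surface and averaged 43.7 CPM with Helicon4 at 100 mpk, 35.9 with Helicon4 at 30 mpk, 13.9 with Helicon4neg and 14.6 with vehicle. HRC, a calcium-binding protein of the sarcoplasmic reticulum, averaged 15.2, 9.20, 3.35 and 2.71 CPM in these groups. EPHB3, a receptor tyrosine kinase of the intestinal crypt, averaged 40.5 CPM with Helicon4 at 100 mpk and 40.3 CPM with 30 mpk, against 12.0 CPM with vehicle. MYT1, a zinc finger transcription factor of neural cells, averaged 11.3 CPM at both doses and 4.14 CPM with vehicle. TP53INP2, a protein of autophagy, averaged 288 CPM with Helicon4 at 100 mpk and 101 CPM with vehicle. Among these 6 genes the log2 difference of 100 mpk over 30 mpk ranged from 0.00 for MYT1 to 0.66 for HRC, and it was 0.41 for PADI2.

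The 6 genes with the lowest r with PADI2 were RASL11B (-0.972), HMGXB3 (-0.965), PMP22 (-0.960), DEFA5 (-0.960), ZAP70 (-0.959) and DACT1 (-0.956). DEFA5, an antimicrobial defensin of Paneth cells, averaged 1.97 CPM with Helicon4 at 100 mpk, 5.33 with Helicon4 at 30 mpk, 82.5 with Helicon4neg and 86.9 with vehicle. ZAP70, a kinase best known from T cells, averaged 2.65, 6.43, 78.9 and 59.5 CPM in these groups. DACT1, an antagonist of Dishevelled in Wnt signalling, averaged 6.44 CPM with Helicon4 at 100 mpk and 26.2 CPM with vehicle. RASL11B, a small GTPase, averaged 5.01 CPM with Helicon4 at 100 mpk and 28.4 CPM with vehicle. Of the promoters found among these 12 genes, none held more than 3 GC boxes, and ZAP70 alone held the TCF letters.

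**Figure D3:**
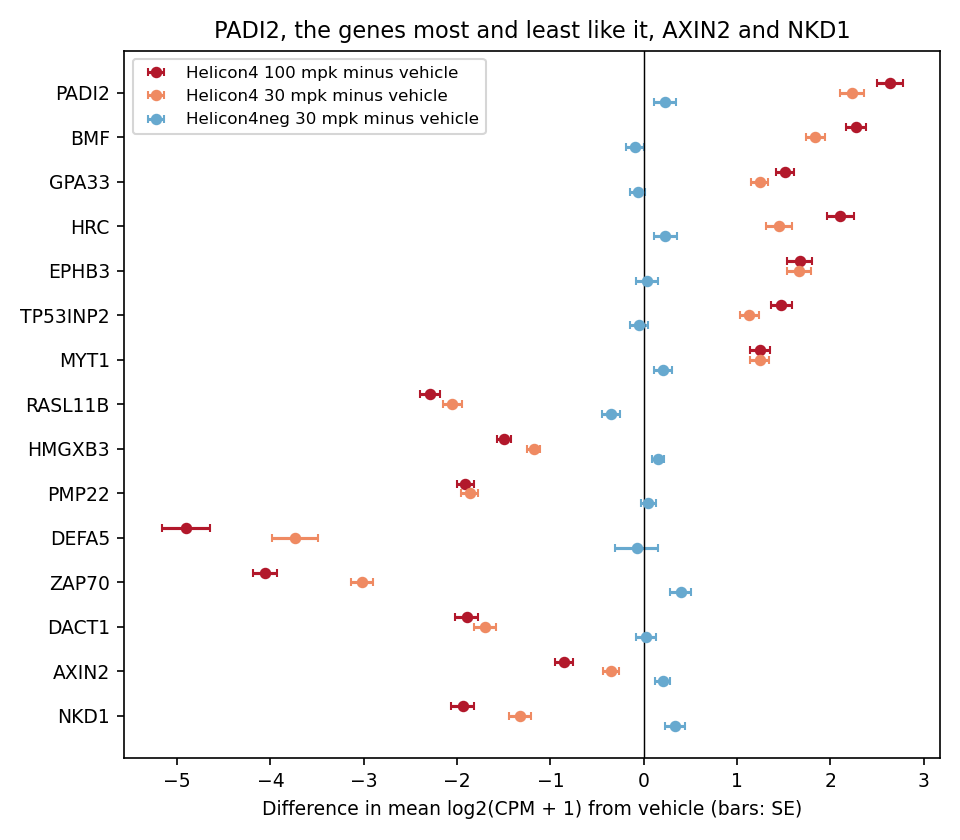
Differences from vehicle in mean log2(CPM + 1) for PADI2, the 6 genes with the highest and the 6 with the lowest r with it, AXIN2 and NKD1; points give both doses of Helicon4 and the Helicon4neg dose, and bars give the SE. PADI2 lies at 2.64, 2.23 and 0.22, and DEFA5 at -4.91, -3.74 and -0.08.

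The spread of PADI2 within groups was also described. After the group mean was taken from each library, IFIT1 had the highest r with PADI2 of 10717 genes, at 0.789, followed by SP6 at 0.739 and USP18 at 0.734. Over all ranked genes the median of this r was 0.0015, and the middle 90 percent lay between -0.292 and 0.303. AXIN2 stood at 0.267 and NKD1 at 0.176. IFIT1, an interferon-induced protein that binds viral RNA, had r of 0.905, 0.754, 0.587 and 0.705 in the Helicon4 100 mpk, Helicon4 30 mpk, Helicon4neg and vehicle libraries, the first over 5 libraries in which AXIN2 had 0.903. The highest deviation of PADI2 was 0.37 in Helicon4 100 mpk replicate 2, where IFIT1 deviated by 0.58. The lowest was -0.65 in Helicon4 100 mpk replicate 4, where IFIT1 deviated by -0.61.

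USP18, an interferon-induced protease that removes ISG15, had within-group r of 0.946, 0.461, 0.366 and 0.772 in the same order of groups. SP6, a transcription factor of the SP family, had 0.968, 0.704, -0.275 and 0.810. Next in this order, and outside the rule for named genes, came CNTNAP4 at 0.707, METTL7A at 0.698, ACOX2 at 0.692, HERC6 at 0.690 and DDX58 at 0.685. At the other end stood YRDC at -0.665, MAFF at -0.634 and ENO2 at -0.627. PADI2 deviations had an r of 0.145 with the dependence on gene length and -0.041 with depth. Across groups IFIT1 averaged 25.2 ± 9.13 CPM with Helicon4 at 100 mpk, 15.7 ± 4.30 with Helicon4 at 30 mpk, 6.52 ± 0.809 with Helicon4neg and 9.50 ± 1.75 with vehicle (SD). These are correlations over 29 libraries for genes chosen by the correlation itself, and they are a description with no test.

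**Figure D4:**
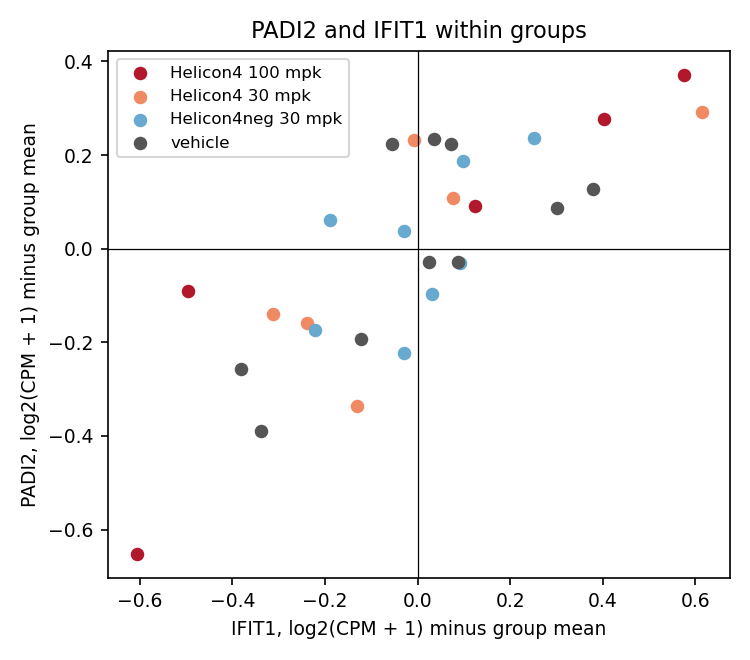
Deviation of PADI2 from its group mean against that of IFIT1, in log2(CPM + 1), for each of 29 libraries, coloured by group. The points rise together with r of 0.789, and Helicon4 100 mpk replicate 4 lies lowest at -0.61 for IFIT1 and -0.65 for PADI2.

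The 3 nearest measured genes on each side of PADI2 on chromosome 1 had log2 differences from vehicle of -0.50 to 0.93 with Helicon4 at 100 mpk. PADI1, PADI3, PADI4 and PADI6 lie between PADI2 and RCC2 and were not analysed here. SDHB, a subunit of succinate dehydrogenase 12.6 kb away, was at 84.2 ± 5.21 CPM with Helicon4 at 100 mpk, against 89.6 ± 12.98 CPM with vehicle (SD). This was a log2 difference of -0.08 (limma, adjusted p = 0.640). ATP13A2, a lysosomal polyamine transporter 54.8 kb away, fell by 0.50 ± 0.12 (SE) at 100 mpk against vehicle (limma, adjusted p = 0.00249), and with the title code as a factor it was at -0.17 (adjusted p = 0.898). MFAP2, a microfibril protein 85.9 kb away, differed by -0.05 (limma, adjusted p = 0.818). On the other side, RCC2, a chromosome condensation regulator 287 kb away, differed by -0.16 (limma, adjusted p = 0.159).

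ARHGEF10L, a guanine nucleotide exchange factor 420 kb away, was higher at both doses of Helicon4 than with vehicle, by 0.29 ± 0.08 at 100 mpk (limma, adjusted p = 0.0102) and by 0.37 ± 0.08 at 30 mpk (limma, adjusted p = 0.00141). ACTL8, an actin-like protein 636 kb away, was at 11.4 ± 2.25 CPM with Helicon4 at 100 mpk, 9.46 ± 1.09 CPM with Helicon4 at 30 mpk and 5.77 ± 2.28 CPM with vehicle (SD). It rose by 0.93 ± 0.19 at 100 mpk (limma, adjusted p = 0.000465) and by 0.70 ± 0.18 at 30 mpk (limma, adjusted p = 0.00943). Both genes lost their calls with the title code as a factor, with ARHGEF10L at 0.50 and 0.41 and ACTL8 at 1.33 and 1.13. Over all genes the same test called 30.2% at 100 mpk (14.3% higher and 15.9% lower) and 11.1% at 30 mpk (5.86% higher and 5.22% lower).

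**Figure D5:**
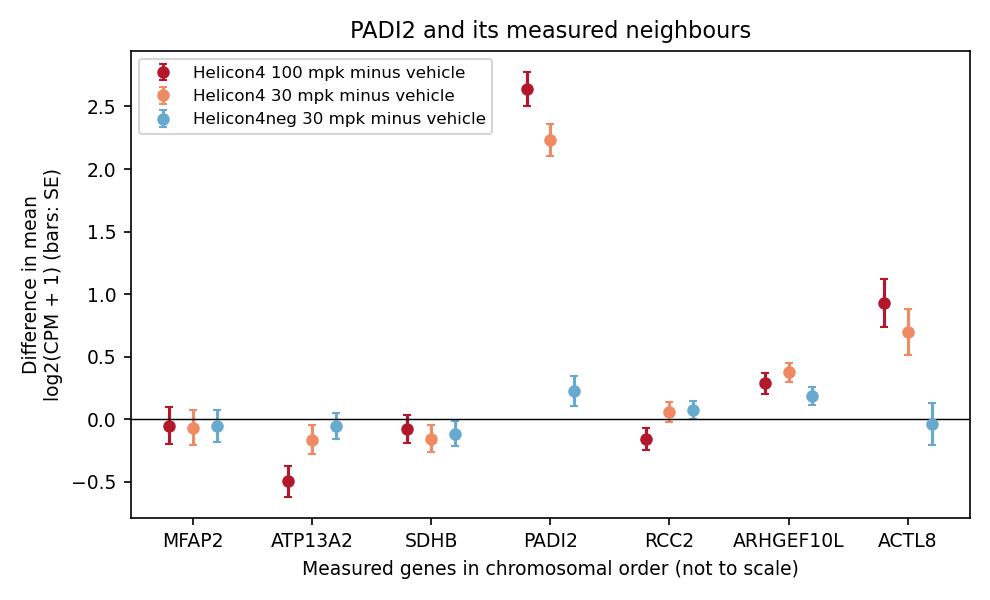
Differences from vehicle in mean log2(CPM + 1) for PADI2 and the 3 nearest measured genes on each side, in chromosomal order and not to scale, with both doses of Helicon4 and with Helicon4neg; bars give the SE. PADI2 stands at 2.64 and 2.23 with Helicon4, and the highest neighbour, ACTL8, at 0.93 and 0.70.

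The gene lists that follow were tested in the fit without the title code. With the code as a factor, 15 of 67 calls of named genes were kept and 52 were lost with the same sign, and 18 of the 67 differences moved by over 1.5 times. Proteins that PADI enzymes are known to citrullinate were measured for 16 of a list of 22. At 100 mpk of Helicon4 against vehicle, 2 of the 16 rose and 8 fell by limma, where 14.3% of all genes rose and 15.9% fell, with a median log2 difference of -0.29 against 0.01 over all genes. EWSR1, an RNA-binding protein, was at 457 ± 34.2 CPM with Helicon4 at 100 mpk and 602 ± 39.9 CPM with vehicle (SD), a fall of 0.40 ± 0.06 (SE, limma adjusted p = 1.17e-05). TAF15 and HNRNPA2B1, which also bind RNA, fell by 0.46 (limma, adjusted p = 0.000331) and by 0.41 (limma, adjusted p = 0.00186). By limma with the title code as a factor, TAF15 was at -0.14 (adjusted p = 0.900), EWSR1 at -0.27 (adjusted p = 0.772) and HNRNPA2B1 at -0.36 (adjusted p = 0.805). The gene of β-catenin itself, CTNNB1, was higher than with vehicle by 0.35 ± 0.06 (SE) at 100 mpk (limma, adjusted p = 8.76e-05) and by 0.24 ± 0.06 (SE) at 30 mpk (limma, adjusted p = 0.00793), and with the code as a factor by 0.21 at 100 mpk (adjusted p = 0.809). The other riser was COL2A1, a cartilage collagen. At 30 mpk of Helicon4 against vehicle, 2 of the 16 rose and 2 fell, where 5.86% of all genes rose and 5.22% fell.

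In the other comparisons few substrates were called. Helicon4neg against vehicle had 2 rises and no fall, where 4.84% of all genes were called (2.21% rose and 2.62% fell). Helicon4 against Helicon4neg at 30 mpk had 2 rises and 1 fall, where 15.1% of all genes were called (7.78% rose and 7.31% fell). Helicon4 at 100 mpk against 30 mpk had no rise and 1 fall, where 3.6% of all genes were called (1.74% rose and 1.86% fell). The fall was EWSR1, with a log2 difference of -0.34 (limma, adjusted p = 0.00383). By limma with the title code as a factor this difference was -0.27 (adjusted p = 0.93).

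Genes of the methylation of arginine in proteins and of its removal, a modification of the same residue, were measured for 10 of 11 listed genes. Of these, 2 fell and none rose at 100 mpk of Helicon4 against vehicle, a share near that of all genes. PRMT7 fell by 0.49 ± 0.10 (SE, limma adjusted p = 0.000479) and PRMT1, the main enzyme of asymmetric dimethylation, by 0.47 ± 0.13 (SE, limma adjusted p = 0.00607). These differences were, with the title code as a factor, -0.15 (adjusted p = 0.880) and -0.05 (adjusted p = 0.962). At 30 mpk none of the 10 was called, where 11.1% of all genes were called. Genes of free arginine and citrulline metabolism were tested for 13 of 18, of which 3 fell and none rose at 100 mpk, with 30.2% of all genes called in either direction, so this share is not a result about the list. ASS1, which joins citrulline to aspartate, fell by 0.66 ± 0.14 (SE, limma adjusted p = 0.000582) and SLC7A1, a transporter of arginine, by 0.53 ± 0.14 (SE, limma adjusted p = 0.00432). In the fit with the title code these were -0.34 (adjusted p = 0.816) and -1.18 (adjusted p = 0.326). ODC1, which makes putrescine from ornithine, fell by 0.29 ± 0.11 (SE, limma adjusted p = 0.0447), a call that was lost without Helicon4 100 mpk replicate 3 (adjusted p = 0.152) and without 12 other libraries left out singly. At 30 mpk ODC1 fell by 0.45 ± 0.10 (SE, limma adjusted p = 0.00325), with an adjusted p of at most 0.0131 with single libraries left out. By limma with the title code as a factor, ODC1 was at -0.23 at 100 mpk (adjusted p = 0.859) and -0.24 at 30 mpk (adjusted p = 0.987).

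Transcription factors with a reported part in the expression of PADI genes were tested for 7 of 8. NFYA, a subunit of the factor that binds the CCAAT box, rose by 0.74 ± 0.11 (SE) at 100 mpk of Helicon4 against vehicle (limma, adjusted p = 1.06e-05) and by 0.35 ± 0.11 (SE) at 30 mpk (limma, adjusted p = 0.0342). The 30 mpk call of NFYA was lost without Helicon4 30 mpk replicate 1 (adjusted p = 0.102) and without 7 other libraries left out singly. With the title code as a factor NFYA differed by 0.39 at 100 mpk (adjusted p = 0.805) and 0.11 at 30 mpk (adjusted p = 0.987), so both calls were lost. NFYB, also on the list, was not called, at 0.21 ± 0.09 (SE) with 100 mpk (limma, adjusted p = 0.0831) and -0.03 with 30 mpk (limma, adjusted p = 0.863). SP1 and SP3, which bind GC boxes and are named outside the rule for named genes, differed by 0.15 (limma, adjusted p = 0.149) and 0.25 (limma, adjusted p = 0.432) at 100 mpk. KLF4, a factor of epithelial differentiation, was at 0.294 ± 0.130 CPM with Helicon4 at 100 mpk, 0.485 ± 0.0851 with Helicon4 at 30 mpk, 2.53 ± 0.981 with Helicon4neg and 1.05 ± 0.419 with vehicle (SD). It was called lower at 100 mpk against vehicle by a log2 difference of -0.64 (limma, adjusted p = 0.00373) and higher with Helicon4neg against vehicle by 0.75 (limma, adjusted p = 0.00201). At these low levels the added 1 shrinks the differences, and edgeR on the recovered reads gave -1.78 and 1.28 for the same comparisons. By limma with the title code as a factor, they were -1.12 (adjusted p = 0.607) and 0.41 (adjusted p = 0.364).

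Calcium handling is listed because PADI enzymes need calcium. Of 16 measured genes of 18, 2 rose and 1 fell at 100 mpk of Helicon4 against vehicle, where 30.2% of all genes were called. At 30 mpk 2 rose and none fell, where 11.1% were called. The risers were HRC, described above for its likeness to PADI2, and ATP2B4, a calcium pump of the plasma membrane. ATP2B4 was at 43.4 ± 7.02 CPM with Helicon4 at 100 mpk, 34 ± 4.91 CPM with Helicon4 at 30 mpk and 20.5 ± 5.10 CPM with vehicle (SD). Its rises were 1.07 ± 0.16 (SE, limma adjusted p = 4.88e-06) and 0.73 ± 0.15 (SE, limma adjusted p = 0.00085). CALR, a calcium-binding chaperone, fell by 0.35 ± 0.09 (SE) at 100 mpk (limma, adjusted p = 0.00291). By limma with the title code as a factor, ATP2B4 was at 0.94 at 100 mpk (adjusted p = 0.63) and 0.63 at 30 mpk (adjusted p = 0.987). In that fit CALR was at -0.46 at 100 mpk (adjusted p = 0.73).

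PADI2 is expressed in normal colon epithelium, and 7 of 26 listed genes of colon differentiation were tested. At 100 mpk of Helicon4 against vehicle, 2 of the 7 rose and 3 fell, where 14.3% of all genes rose and 15.9% fell. At 30 mpk 1 rose and 2 fell, where 5.86% of all genes rose and 5.22% fell. KRT20, a keratin of mature colonocytes named outside the rule for named genes, rose by 0.73 ± 0.17 (SE) at 100 mpk (limma, adjusted p = 0.00156). At 30 mpk KRT20 differed by -0.07 (limma, adjusted p = 0.818). ATOH1, the factor of secretory cells, rose by 0.52 ± 0.11 (SE) at 100 mpk (limma, adjusted p = 0.00062). FABP2, a fatty acid binding protein of enterocytes, fell by 1.63 ± 0.16 (SE, limma adjusted p = 4.69e-09), CA2 by 0.65 ± 0.12 (SE, limma adjusted p = 0.000112) and CDX2 by 0.59 ± 0.13 (SE, limma adjusted p = 0.000645). By limma with the title code as a factor CA2 was at -1.54 (adjusted p = 0.0183) and CDX2 at -0.38 (adjusted p = 0.805). In that fit FABP2 was at -1.84 (adjusted p = 0.177) and ATOH1 at 0.65 (adjusted p = 0.670). PADI2 was thus high in the same libraries in which these members moved in both directions. Of 16 Wnt targets, 1 rose and 11 fell at 100 mpk against vehicle with a median log2 difference of -0.55, against shares of 14.3% and 15.9% and a median of 0.01 over all genes, and the riser was EPHB3.

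Human genes listed as markers of host cell types moved with the treatment in part. GRCh38 is the only genome listed and the tumours are of a human line, so these levels cannot be assigned to host cells or tumour cells. The summed level of 3 measured endothelial markers of a list of 8 (CLDN5, EGFL7 and ERG) had a median of 107 CPM with Helicon4 at 100 mpk (103 to 152), 163 CPM with Helicon4 at 30 mpk (151 to 189), 184 CPM with Helicon4neg (169 to 226) and 177 CPM with vehicle (143 to 203). The sum of 5 fibroblast markers of 10 had medians of 54.0, 64.0, 91.6 and 85.4 CPM in these groups. Its 5 members went both ways at 100 mpk against vehicle, with 2 rises and 2 falls, where 14.3% of all genes rose and 15.9% fell. BGN averaged 11.5 CPM with Helicon4 at 100 mpk and 45.4 CPM with vehicle and fell by 1.94 (limma, adjusted p = 2.82e-10), whereas COL1A1 rose by 0.77 (limma, adjusted p = 5.41e-05) and PDGFRA by 1.13 (limma, adjusted p = 2.45e-10). The sum of 3 macrophage markers of 9 (CSF1R, CTSS and PTPRC) had medians of 32.7, 27.8, 36.8 and 29.4 CPM. Of these, CTSS fell by 0.77 against vehicle at both doses of Helicon4 (limma, adjusted p = 0.000157 at 100 mpk and 0.000179 at 30 mpk). CSF1R and PTPRC were not called at either dose. KRT10, the 1 measured member of 8 fat and skin markers, had medians of 20.9, 16.9, 19.1 and 21.99 CPM, and the lists of neutrophil and skeletal muscle markers, cells in which PADI enzymes are also known, were not analysed here. The part of host cells in the PADI2 values was not tested, and in bulk tumour RNA more cells that express PADI2 and more PADI2 RNA per cell cannot be told apart.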

How the data were processed

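PolyA RNA of 29 COLO320DM tumours was measured. Per the submitters' processing notes, the tools were Trimmomatic 0.39, STAR 2.7.7a, featureCounts of Subread 2.4.2 and edgeR 4.0.2, and the genome was GRCh38. Their settings and annotation are not given in the sources used here. A mouse genome is not among the builds listed, and whether host reads fell under human PADI2 was not tested. Per the labels' protocols, NEBNext Ultra II Directional is named for extraction and TruSeq stranded mRNA for libraries, sequenced on a NovaSeq S4. The authors' table holds a scaled signal per gene, equal to read counts over a library size adjusted between samples (scaled CPM). Its columns summed to 0.921 to 1.263 M. All values (100%) came out as whole reads within 0.05 reads once divided by the value of 1 read in that library. The depths so recovered were 34.3 to 61.6 M reads with Helicon4 at 100 mpk, 40.8 to 48.6 M with Helicon4 at 30 mpk, 27 to 59.4 M with Helicon4neg and 26.8 to 60.9 M with vehicle. PCR duplicates are not marked, so counting error is a lower limit. No pair of libraries agreed within sampling noise (the lowest chi-square per gene was 9.55).

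The fit used log2(CPM + 1) of the 13373 genes that reached 1 CPM in 5 or more libraries, with limma 3.58.1 (trend and robust; R 4.3.3), all 4 groups together and no covariates. Tests were two-sided, adjusted by Benjamini-Hochberg over all genes, with a threshold of 0.05. Alternatives were another pseudocount, other filters, TMM scaling, no trend, only the 2 groups compared, the replicate number or title code as a factor, libraries left out, and count tests on the recovered reads with edgeR 4.0.16 and DESeq2 1.42.0. Correlations used exact permutation of pairings, or 100000 resamples for 10 libraries. Gene positions came from GENCODE 29 (13479 IDs matched), and promoters from RefSeq. Named genes were PADI2, AXIN2, NKD1, measured PADI family members, the 3 nearest measured genes on each side, the 6 genes at each end by r with PADI2, the 3 at each end by r of deviations from group means (mean of at least 5 CPM, no clone-style or pseudogene symbols), and, from every list, the 4 genes with the lowest adjusted p at 100 mpk. PADI2, the lists and these rules were chosen with earlier results of these data known. A member of 1 list is not reported here.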

Additional observations from a re-analysis of the deposited data

Results flagged for a closer look

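Of 108 sets of libraries (27 named genes in 4 groups), 14 had 1 library far from the rest of its group, a gap beyond Dixon's 95% limit, which chance passes in about 1 in 20 groups. None of the 14 was in PADI2, AXIN2 or NKD1. Helicon4 100 mpk replicate 4, the library with the lowest PADI2 level at that dose, also stood apart for MYT1 at 7.86 CPM (the nearest other library had 11.6) and for ENO2, the neuronal enolase, at 205 CPM (71.4). Helicon4 30 mpk replicate 1 stood apart for IFIT1 at 23.9 CPM (16.2) and for SDHB at 68.3 CPM (80.1). Helicon4neg replicate 2 stood apart for RASL11B at 31.2 CPM (23.4), DEFA5 at 163 CPM (86.2), SDHB at 136 CPM (83.5), MFAP2 at 167 CPM (98.8) and ACTL8 at 9.40 CPM (5.67). Other Helicon4neg libraries stood apart for ZAP70 at 112 CPM (85.1, replicate 4) and ATP13A2 at 60.5 CPM (48.3, replicate 3). Vehicle replicate 6 stood apart for DEFA5 at 179.2 CPM (109), and vehicle replicate 4 for HMGXB3 at 245 CPM (224) and MAFF at 13.96 CPM (6.89).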

How the results depend on the processing

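The PADI2 differences kept their sign in every setting tried. The difference of Helicon4 at 100 mpk from vehicle, 2.64 as reported, was 2.89 with a pseudocount of 0.1, 2.95 with edgeR, 2.95 with DESeq2 and 2.97 with the title code as a factor. For Helicon4 at 30 mpk against vehicle, 2.23 as reported, these last 3 gave 2.50, 2.51 and 2.49. For Helicon4 against Helicon4neg the code as a factor gave 2.34. Code SH7081 alone, a setting chosen after seeing the data, gave the same value, because both rest on the 1 Helicon4 library of that code. Leaving out each library in turn gave 2.55 to 2.80 and 2.17 to 2.30 for Helicon4 at 100 and 30 mpk against vehicle, 0.18 to 0.26 for Helicon4neg against vehicle, 1.95 to 2.07 for Helicon4 against Helicon4neg, and 0.32 to 0.57 between the doses (lowest without 100 mpk replicate 2, highest without replicate 4). Counts of called genes, in the order of these 5 comparisons, were 4043, 1481, 647, 2018 and 482 as reported. With the title code as a factor they were 141, 74, 2, 184 and 10. Only the 2 groups compared gave 374 for Helicon4neg against vehicle. DESeq2 gave 1105 for that comparison and 750 between the doses; edgeR gave 673 and 457. Without Helicon4neg replicate 2 and vehicle replicate 6 these 2 counts were 2025 and 1051. With single libraries left out the counts ranged over 2947 to 5251, 983 to 2534, 381 to 2592, 1500 to 2295 and 203 to 795. Of 67 calls of named genes, 15 were kept with the code as a factor and 52 lost with the same sign, 65 were kept by edgeR, 66 by DESeq2, and 61 with each library left out. The replicate numbers did not pair the libraries: deviations of 35 same-number pairs correlated between -0.70 and 0.52, and 0 of 27 libraries correlated best with its own number. With the replicate number as a block the PADI2 differences were 2.67, 2.25, 0.25, 2.00 and 0.42, the counts of called genes 4431, 1519, 466, 1605 and 366, and 62 of the 67 calls were kept. Without the 2 farthest libraries, r with AXIN2 in vehicle turned to 0.215 and r with NKD1 in Helicon4neg to -0.262; in the vehicle libraries of code SH7079 alone, also chosen after seeing the data, r with AXIN2 was 0.187. With single libraries left out, r with AXIN2 ranged over -0.75 to -0.063 (Helicon4 30 mpk), -0.268 to 0.442 (Helicon4neg) and -0.349 to 0.00993 (vehicle), and r with NKD1 over -0.291 to 0.434, -0.00326 to 0.369 and 0.135 to 0.438 in these groups. Filters on low values do not enter the PADI2 differences, which have no such setting. With no code holding both vehicle and Helicon4, code and treatment cannot be told apart there. The cause of each change was not tested.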
